A study of Mus musculus with 6 samples.

Results

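Tbc1d5 and its neighbours lie across the bait from the distal Satb1 enhancers. The gene block described here comprised the 4C-seq fragments of chromosome 17 with a midpoint from 50462000 to 51319999 (mm9), which is 642 to 1500 kb from the bait. It held 2100 DpnII fragments of the 229546 on the chromosome and of the 7547 within 1.5 Mb of the bait. Members are defined by position, and the block was chosen with earlier results of these data known. In 4C-seq, chromatin is fixed, cut and ligated, and fragments joined to 1 chosen bait are sequenced, so that the read count of a fragment reports how often it was captured with the bait. The series comprised 6 libraries from 3 baits, of which 2 used the Satb1 bait at position 51962000, within Satb1.

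One of these came from double positive (DP) thymocytes, immature T cells with both CD4 and CD8, which were sorted by flow cytometry from c57/Bl6 mice aged 4 weeks. The other came from J1 embryonic stem (ES) cells, a line of 129S4/SvJae origin that was kept on embryonic fibroblast feeders and then moved to gelatin to lose them. Both were fixed with 2% formaldehyde for 10 min and digested with DpnII and Csp6I. The sample labels give 0.4% SDS for both, while the Methods describe a stronger SDS step for DP nuclei, so that cell type, strain and possibly this step cannot be told apart. Each cell type had 1 library, so no value below has a replicate error and no difference was tested. The ratios compare these libraries, and the intervals cover the counting error of reads or fragments only. Because PCR duplicates were not distinguished, reads are not independent counts of contacts, and intervals on reads are too narrow for contacts. The counts hold no readout of cell identity, so the labels could not be checked against markers.

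Satb1 encodes a chromatin organizer with a role in developing T cells, and the study describes its locus as silent in ES cells. A promoter meets distant chromatin in part by random folding, which makes contacts fall with distance, and in part by loops to enhancers, by domain borders and by the tendency of active chromatin to gather. Tbc1d5 encodes a GTPase-activating protein for Rab proteins that acts with the retromer, a sorting complex of endosomes. Plcl2 encodes a phospholipase C-like protein that lacks lipase activity. Neither was the object of the experiment, and the transcription of neither was measured here.

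GENCODE vM1 places 4 genes in the block. Tbc1d5 (ENSMUSG00000023923.8) runs from 50872452 to 51318674 on the minus strand, 446 kb in all. Its start faces the bait at 643 kb, and its end lies 1090 kb away. Plcl2 (ENSMUSG00000038910.6) runs from 50648872 to 50827818 on the plus strand, and its start lies 1313 kb from the bait. The short Gm7334 (50837852 to 50839205, plus strand) lies between them. U4 (51056250 to 51056366, minus strand), a gene for a spliceosomal small nuclear RNA, sits inside Tbc1d5. No gene is annotated from 50462000 to the start of Plcl2, nor between Tbc1d5 and Satb1.

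The fragments with the most reads in the block lay in introns, 5 of them in Tbc1d5 and 1 in Plcl2. The first 60 bases of each are shown here because they are the places where the captured reads of the block were densest, 3 for each library. They are given 5′ to 3′ on the plus strand of mm9, with the DpnII site GATC and any Csp6I site GTAC in capitals.
DP rank 1, Tbc1d5 intron, chr17:51307740-51307799: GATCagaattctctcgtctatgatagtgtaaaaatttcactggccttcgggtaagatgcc
DP rank 2, Tbc1d5 intron, chr17:51252715-51252774: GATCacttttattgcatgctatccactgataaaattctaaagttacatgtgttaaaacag
DP rank 3, Tbc1d5 intron, chr17:51279528-51279587: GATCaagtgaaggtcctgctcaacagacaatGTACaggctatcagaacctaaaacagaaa
ES rank 1, Tbc1d5 intron, chr17:51065366-51065425: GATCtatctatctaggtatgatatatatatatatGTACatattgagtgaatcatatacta
ES rank 2, Tbc1d5 intron, chr17:51315119-51315178: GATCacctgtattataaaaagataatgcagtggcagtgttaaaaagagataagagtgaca
ES rank 3, Plcl2 intron, chr17:50663481-50663540: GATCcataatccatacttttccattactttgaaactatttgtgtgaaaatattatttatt

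The 3 fragments highest in DP had 3056, 2921 and 2416 reads there, against 345, 121 and 0 in ES. Of those highest in ES, rank 1 had 2806 reads against 8 in DP, rank 2 had 1807 against 2096, and rank 3 had 1705 against 0. Among these 6, only the ES fragment of rank 2, 646.7 kb from the bait and close to the start of Tbc1d5, was thus high in both libraries. For all 6, the prey sequence at 1 or both fragment ends occurred at no other DpnII site of the genome. The whole fragment of DP rank 1 holds no GTAC site, while each of the others holds one.

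Over the whole block, the Satb1 promoter was captured somewhat less in DP thymocytes than in ES cells. The block held 150303 reads in DP, 7.53% of the reads on the chromosome (95% Wilson interval 7.49% to 7.56%), and 177867 reads in ES, 9.63% (9.58% to 9.67%). The normalized 4C signal was 67.6 in DP and 89.9 in ES, with a DP to ES ratio of 0.752. This signal is the mean of the reads on each fragment once both libraries had been brought to 1 distribution by quantile normalization within 1.5 Mb of the bait. At least 1 read was found on 28.6% of the fragments in DP (600 of 2100, exact 95% interval 26.7% to 30.6%) and on 48.9% in ES (1027, 46.7% to 51.1%). The median number of reads per detected fragment was 54.5 in DP and 60 in ES over the block. It was lower in DP in both of its parts, 71 against 91 in Tbc1d5 and 20 against 34 beyond it.

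The difference was not spread evenly over the block. Over the 1033 fragments of Tbc1d5 the normalized 4C signal was 118.5 in DP and 124.7 in ES, and the ratio was 0.95. Over the 1065 fragments beyond its end, it was 16.9 in DP and 56.2 in ES, which is 3.32 times more in ES (ratio 0.302). From Tbc1d5 to the stretch beyond it, the signal thus fell by a factor of 6.99 in DP and of 2.22 in ES. In DP the stretch beyond Tbc1d5 held 11.6% of the block's reads, and in ES 32.4%.

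Tbc1d5 also stood out from the chromatin nearer to the bait. Over the 1344 fragments of the gene-free stretch between Tbc1d5 and Satb1, the signal was 105.8 in DP and 274.8 in ES, 2.60 times more in ES. In ES the signal decreased with distance, and the gene-free stretch had 2.20 times the level of Tbc1d5. In DP the same stretch had 0.893 of the level of Tbc1d5, although it lies nearer to the bait. The order in DP held for the mean signal only. Detected fragments made up 50.3% of the gene-free stretch and 44.2% of Tbc1d5 in DP, and 79.0% and 57.2% in ES.

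**Figure D1:**
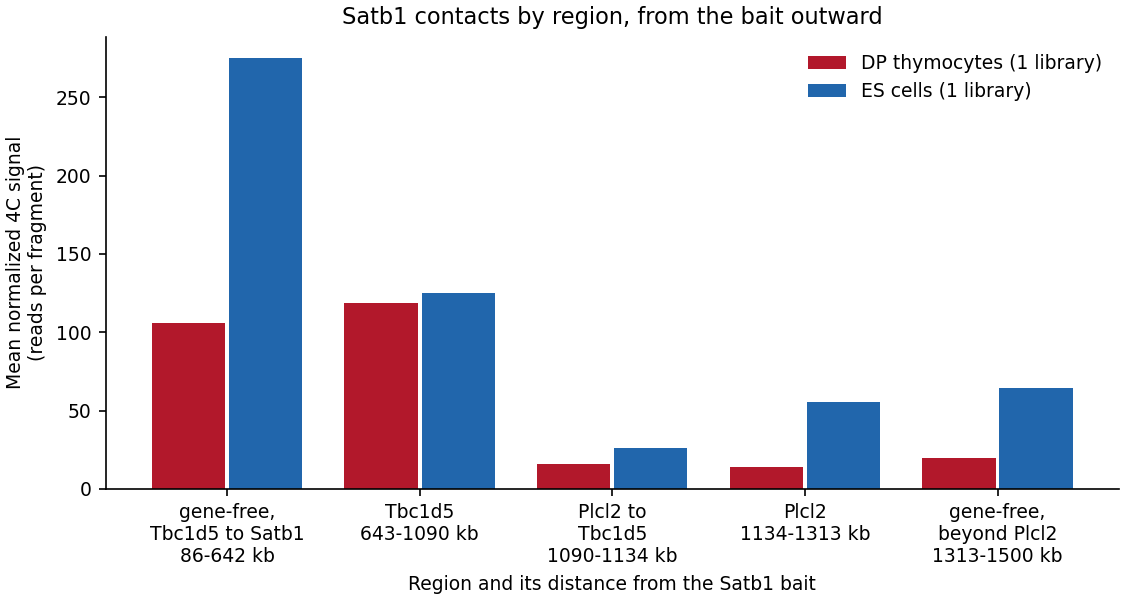
Mean normalized 4C signal in reads per fragment (y-axis) of the DP library (red bars) and the ES library (blue bars) in the 5 regions from Satb1 outward (x-axis, with distances from the bait). The bars of Tbc1d5 are level at 118.5 and 124.7, while ES is higher in the other 4 regions, with 274.8 against 105.8 on the bait side of Tbc1d5 and 55.4 against 14.2 in Plcl2.

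In steps of 50 kb from the far end, ES exceeded DP by at least 2-fold in 9 of 17 steps (52.9%), against 41.7% of the 60 such steps within 1.5 Mb of the bait, and DP exceeded ES to that extent in 0, against 10%. A last piece of 8 kb with 10 fragments was not counted as a step. The share in favour of ES was thus only somewhat above the background of the whole range, which includes the block and both sides of the bait. Between the block and the bait, 0 of 13 steps passed 2-fold toward DP and 69.2% toward ES. On the other side, 3 of 13 nearer steps and 3 of 17 at the block's distances passed it toward DP. The steps fell into different kinds on either side of position 50862000, 1100 kb from the bait, a place chosen after the values were seen. All 8 steps beyond it had at least 2 times more signal in ES, with DP to ES ratios from 0.132 to 0.446. Of the 9 nearer steps, 1 did, 4 were higher in DP and 5 in ES, and the ratios ran from 0.375 to 1.42.

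Levels in these steps ranged from 3.91 to 161.7 in DP and from 22.3 to 166.6 in ES. The lowest DP value came from the step starting at 50762000, within Plcl2, where ES had 29.6. The highest DP value came from the step starting at 50912000, within Tbc1d5, where ES had 126.1. The highest and the lowest step therefore differed by a factor of 41.3 in DP and of 7.49 in ES. The lowest DP value rested on 642 reads on 7 of 169 fragments, with 88.5% of the reads on 1 fragment. Only 60.9% of the fragments in that step had an end unique in the genome, so the DP factor depends on a step that is hard to map.

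In steps of 20 kb, ES exceeded DP by at least 2-fold in 21 of 43 steps (48.8%), against 41.2% of all 148 steps within 1.5 Mb. DP exceeded ES by at least 2-fold in 2 (4.65%), against 18.2%. Those 148 steps include the block's own and lie on both sides of the bait. Between the block and the bait, 0 of 31 steps were at least 2 times higher in DP, and 64.5% in ES. On the other side, 15 of 31 nearer steps and 10 of 43 at the block's distances were at least 2 times higher in DP. The low number toward DP was thus shared with the stretch next to the block. The median DP to ES ratio of the 43 steps was 0.531, against 0.672 for all steps in range. Beyond 1100 kb, 18 of 20 steps were at least 2 times higher in ES, and the median ratio was 0.304. Nearer to the bait, 3 of 23 were, and the median ratio was 0.884. When odd- and even-numbered fragments were taken apart, 12 steps were at least 2 times higher in ES in both sets, all of them beyond 1100 kb, and 1 step was at least 2 times higher in DP in both. The count in both sets was not made for all 148 steps, so it has no background. Taken alone, 38.5% of all steps in the odd set and 43.9% in the even set were past 2-fold toward ES. The 2 sets come from the same libraries and are not replicates.

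**Figure D2:**
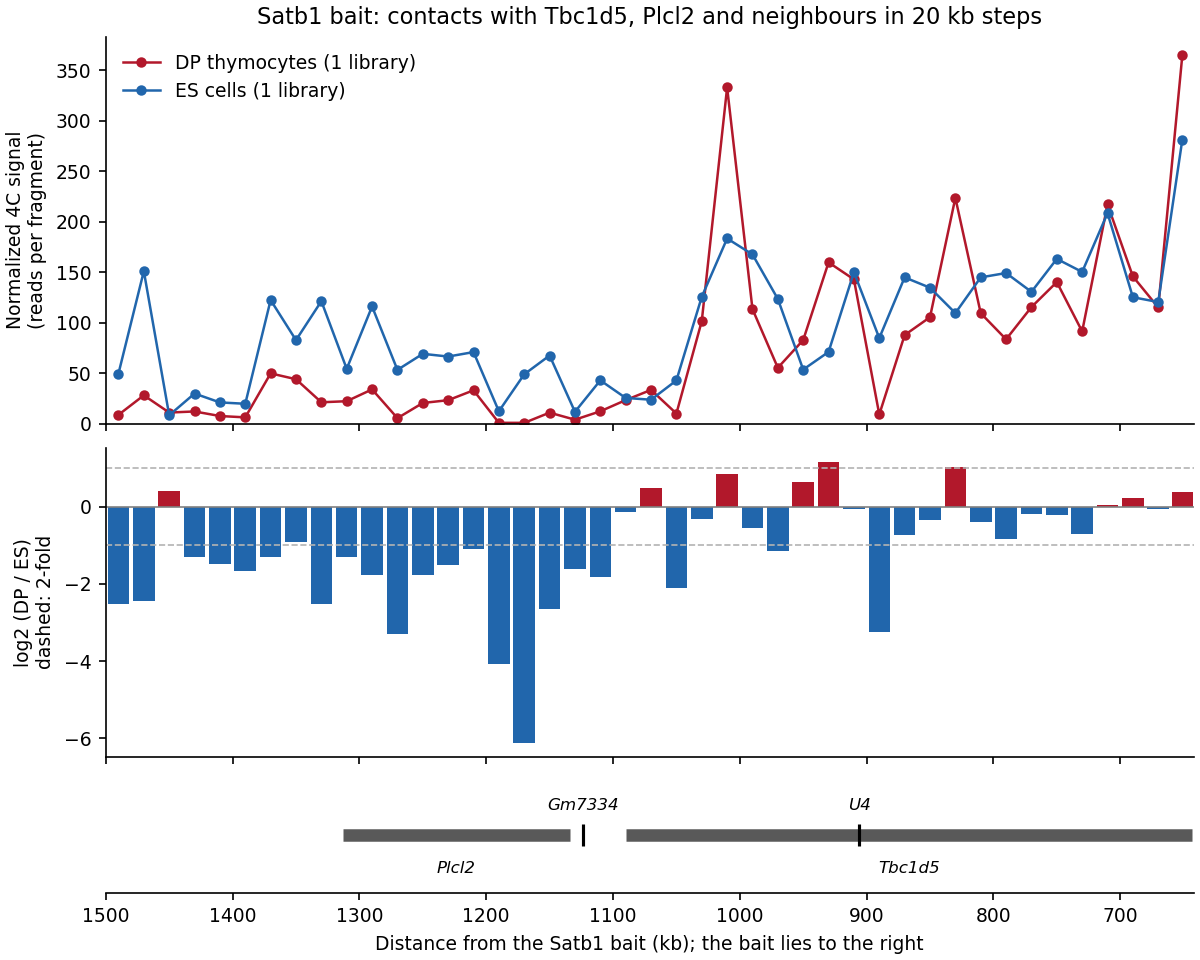
Normalized 4C signal (upper panel, y-axis, reads per fragment) and its log2 ratio of DP to ES (middle panel, dashed lines at 2-fold) in 43 steps of 20 kb against the distance to the bait in kb (x-axis), with the genes as bars (lower panel) and 1 library per cell type. ES lies above DP in 19 of the 20 steps beyond 1100 kb, while over Tbc1d5 both directions occur and the levels reach 365 in DP and 281 in ES at the near edge.

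The same steps tended to be high in both libraries. Across the 43 steps, the log2 levels of DP and ES had Pearson's r of 0.760 and Spearman's rho of 0.797. These points share distance and base composition: levels decreased with distance (rho of -0.722 in DP and -0.602 in ES) and with GC content (rho of -0.773 and -0.732). The mean GC content was 39.2% for fragments of Tbc1d5 and 43.5% beyond it. The DP to ES ratio also decreased with GC content over the 43 steps (rho of -0.516) and over the 17 steps of 50 kb (rho of -0.664). Within the 23 near and the 20 far steps of 20 kb, as divided above, this rho was -0.024 and -0.089, and within the 9 near steps of 50 kb it was -0.35. The part of base composition in the difference was not tested.

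Tbc1d5 was contacted over most of its length in both cell types, with a sharp rise that lay inside the gene and not at its 3′ end. Near the 3′ end, in the 20 kb steps starting at 50882000 and 50902000, the signal was still 33.4 and 9.92 in DP, and 23.6 and 42.7 in ES. In the next steps toward the bait, starting at 50922000 and 50942000, it was 101.5 and 333.0 in DP, and 125.5 and 183.4 in ES. The rise was thus present in both libraries between the steps centred 1050 and 1010 kb from the bait, and it led to a higher level in DP. The ratio of 1.82 in the step starting at 50942000 was 2.77 for its even-numbered and 1.11 for its odd-numbered fragments. Of its 40 fragments, 82.5% had a read in DP (67.2% to 92.7%) and 70% in ES (53.5% to 83.4%). The running mean over 21 fragments reached its highest DP value in Tbc1d5 here, 460.2 at position 50950574, which is 1011 kb from the bait, where ES had 202.3.

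This DP top lay farther from the bait than the ES top of the gene. In ES the running mean was highest at 51314429, 647.6 kb from the bait and near the gene's start, with 396.7 against 283.7 in DP. By steps, the highest level in either library was at the near edge, in the step starting at 51302000 (365.0 in DP and 281.4 in ES). Second in ES came the step starting at 51242000 (208.5, against 217.1 in DP), followed by the step starting at 50942000. In DP the order was 51302000, 50942000 and 51122000.

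**Figure D3:**
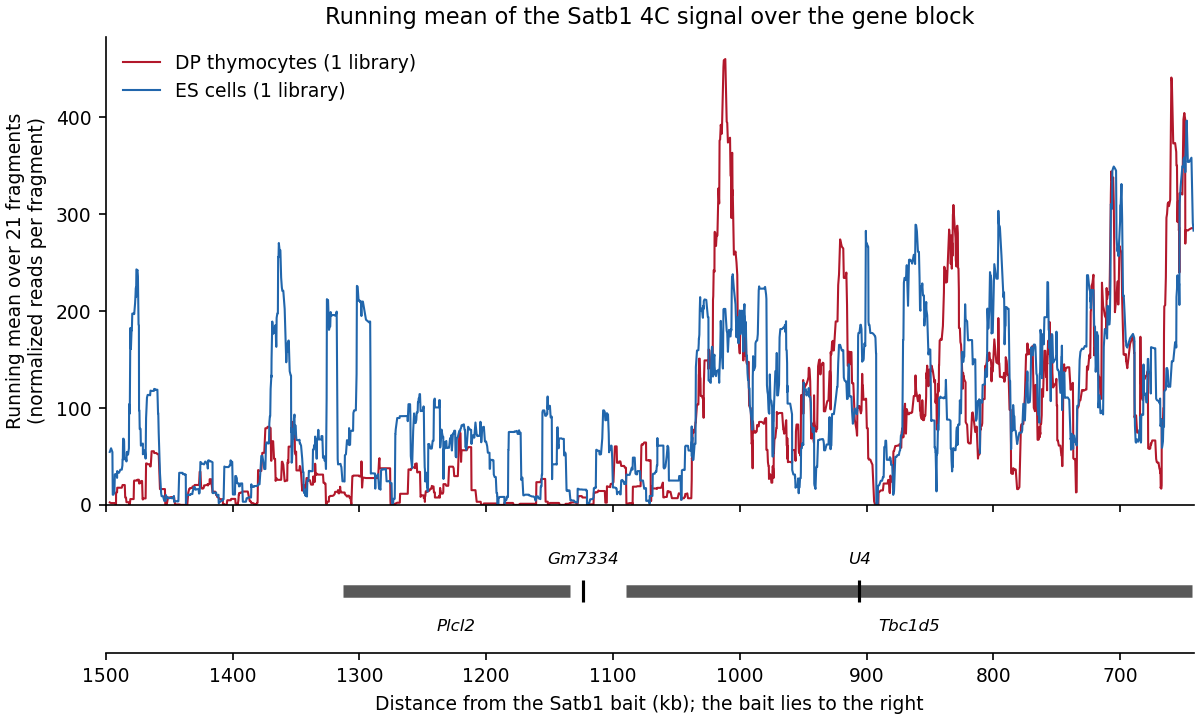
Running mean over 21 fragments of the normalized 4C signal (y-axis, reads per fragment) against the distance to the bait in kb (x-axis) in the DP library (red) and the ES library (blue), with the genes as bars. DP has its highest point in the block, 460.2, near 1011 kb inside the 3′ part of Tbc1d5, and stays low beyond 1050 kb, where ES keeps separate rises to 270.3.

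The steps with the highest DP to ES ratio all lay in Tbc1d5. The step starting at 51022000 had 159.7 in DP and 71.0 in ES, and its ratio of 2.25 came from the even-numbered fragments (4.26) and not from the odd-numbered ones (0.961). The step starting at 51122000 had 223.6 and 109.4, a ratio of 2.04, with 2.02 and 2.07 in the odd and even sets. It was the only step of the block past 2-fold toward DP in both sets. The steps starting at 50942000, 51002000 and 50882000 followed, with ratios of 1.82, 1.55 and 1.41.

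One stretch within Tbc1d5 went the other way. The step starting at 51062000, about 890 kb from the bait, had 9.0 in DP and 84.7 in ES, 9.41 times more in ES. It held the highest ES fragment of the block, which carried 59.5% of the step's ES reads, and only 38.3% of its fragments had an end that is unique in the genome. The odd-numbered fragments gave a ratio of 0.715 and the even-numbered ones 0.074, so that this step rested on few fragments. The U4 gene next to it lay on 1 fragment without a read in either library.

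At the start of Tbc1d5 the libraries were similar. Over the 15 fragments within 10 kb of the start and up to the edge of the block, the signal was 364.4 in DP and 392.5 in ES, 3.08 and 3.15 times the level of the whole gene. The DP to ES ratio was 0.928 here, and it was 1.12 with reads scaled to the total of each library. The fragment that holds the start itself, 1721 bp long (51317324 to 51319044), had 0 reads in DP and 475 in ES. This fragment holds a GTAC site and has an end that is unique in the genome. It lies in the 20 kb step with the highest level in both libraries. Empty fragments were not rare there: 58.6% of the fragments in that step had a read in DP, and 53.3% of the 15 around the start. The 250 bases before the start are shown because the long fragment that holds the start was empty in DP. These bases are given 5′ to 3′ on the minus strand of mm9. No base is in capitals because neither site was found within these 250 bases.
Tbc1d5 promoter, chr17:51318675-51318924: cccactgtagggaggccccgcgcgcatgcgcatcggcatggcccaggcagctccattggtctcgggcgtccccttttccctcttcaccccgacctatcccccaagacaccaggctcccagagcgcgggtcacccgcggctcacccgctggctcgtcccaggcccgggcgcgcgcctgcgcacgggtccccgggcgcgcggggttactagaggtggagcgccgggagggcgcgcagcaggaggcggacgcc
Its GC content was 74.4%, with 30 CpG. Neither GATC nor GTAC, which read the same on both strands, occurs in it. Among 32851 mouse promoter windows of the same length from RefSeq, 41.9% hold GATC and 31.5% hold GTAC. Those windows are of another assembly than mm9 and differ in composition, with a median GC content of 52.4% and a median of 6 CpG. Fragments that overlap an exon of Tbc1d5 (33) had 118.6 in DP and 160.7 in ES, and those within introns (1000) had 118.5 and 123.5.

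Detection of fragments, which does not depend on the scaling of reads, divided the block in the same way. It comes from the same counts, and the split was chosen after the values were seen, so it is not independent support. Beyond 1100 kb, the share of fragments with a read in the 8 steps of 50 kb was 4.14% to 22.7% in DP and 26.0% to 50.0% in ES. The exact 95% intervals were apart in all 8, with DP lower. The lowest share of either library came from the step starting at 50762000, where only 60.9% of the fragments had a unique end. In the 9 nearer steps the share was 16.8% to 65.6% in DP and 36.3% to 69.8% in ES, and the intervals were apart in 3. DP was thus lower in 16 of the 17 steps, against 73.3% of the 60 steps within 1.5 Mb of the bait, and lower with intervals apart in 11, against 55%. Detection was lower in DP over that whole range, with 39.2% of fragments against 50.4% in ES. Over Tbc1d5 as a whole it was 44.2% in DP (41.2% to 47.3%) and 57.2% in ES (54.1% to 60.3%), so that DP reached a level of signal close to ES with fewer fragments.

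**Figure D4:**
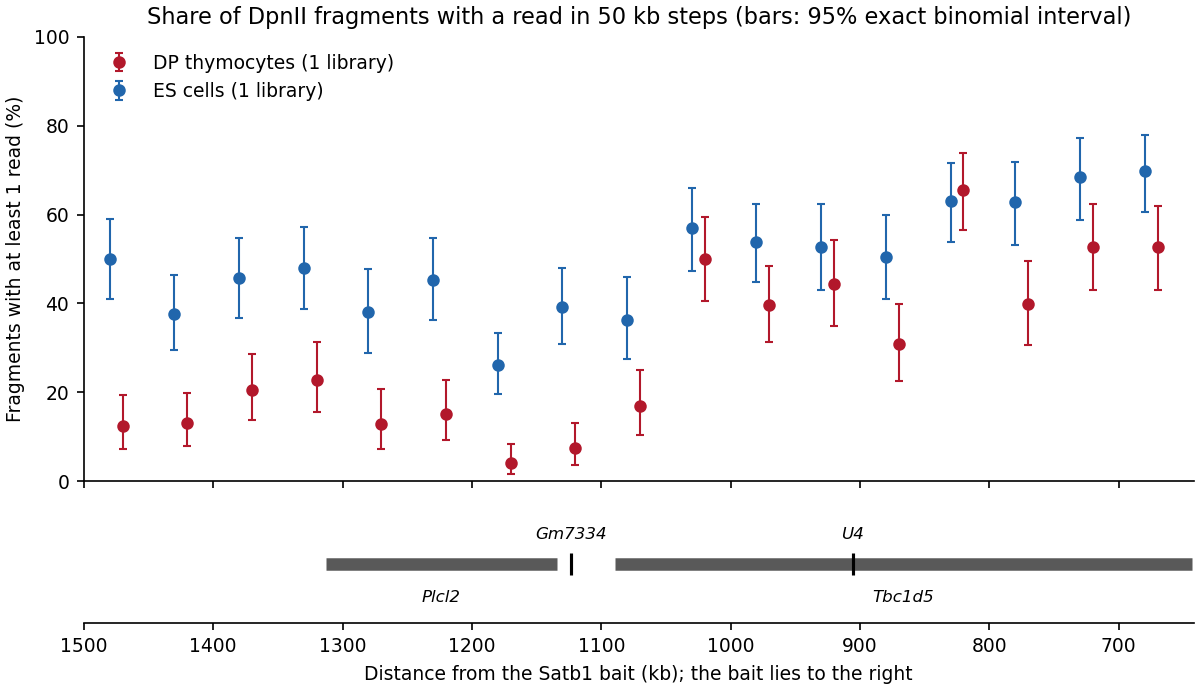
Share of DpnII fragments with at least 1 read (y-axis, percent) in 17 steps of 50 kb against the distance to the bait in kb (x-axis; points of the libraries are set 5 kb to either side of the step's middle), with exact 95% binomial intervals as bars and 1 library per cell type. In the 8 farthest steps DP lies at 4.14% to 22.7% and ES at 26.0% to 50.0%, while over Tbc1d5 most intervals meet.

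The sharing of fragments between the libraries followed their detection. In the block, 408 fragments had a read in both libraries, 192 in DP alone, 619 in ES alone and 881 in neither. In Tbc1d5, 72.4% of the DP fragments were also found in ES, against 57.2% of all its fragments, and 56.0% of the ES fragments were found in DP, against 44.2% of all. Beyond it 53.9% of the DP fragments were found in ES, against 40.8% of all fragments there, and 17.5% of the ES fragments in DP, against 13.2% of all. In both stretches a fragment found in 1 library was thus found somewhat more often in the other than fragments at large. Of the 50 fragments with the most reads in DP, 46 lay in Tbc1d5, 37 had a read in ES and 13 had none. Of the 50 highest in ES, 36 lay in Tbc1d5, 24 had a read in DP and 26 had none. For comparison, Tbc1d5 held 1033 of the block's 2100 fragments. In the whole block, 48.9% of the fragments had a read in ES and 28.6% in DP. The highest fragments were thus found in the other library more often than fragments of the block at large. Most of them lay in Tbc1d5, and against its shares of 57.2% in ES and 44.2% in DP the excess was smaller. Within 1.5 Mb of the bait, 78.3% of the DP fragments were found in ES and 61.0% of the ES fragments in DP. Fragments without a unique end rarely had a read in either library, and the part of this in the sharing was not tested. In DP, 63 of the 600 detected fragments held 50% of the block's reads, and in ES 115 of the 1027 did. Set against the number of detected fragments, the libraries were thus close.

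Plcl2 was contacted little in DP thymocytes. Over its 466 fragments the signal was 14.2 in DP and 55.4 in ES, 3.90 times more in ES, and 9.87% of the fragments had a read in DP against 37.3% in ES. Compared with Tbc1d5, Plcl2 was lower by a factor of 8.33 in DP and of 2.25 in ES. The running mean over Plcl2 was highest at 50660042 in ES, near the gene's start, with 226.1 against 30.3 in DP, and at 50740809 in DP, with 74.1 against 76.5 in ES.

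The start of Plcl2 had few DP reads. Within 10 kb on either side of it, 266 reads lay on 12 of 46 fragments in DP, and 5281 reads on 25 of them in ES. The signal there was 10.5 in DP and 127.3 in ES, 12.1 times more in ES. This ratio depended on where the edges were set. In the step starting at 50642000, which also holds the start, it was 2.45 times more in ES. There, 1 fragment (50661111 to 50661586), 12.5 kb into the gene, had 699 of the 922 DP reads and 0 ES reads. The fragment that holds the start had 0 reads in both.

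Of the 5 steps with the lowest DP to ES ratio, 2 lay in Plcl2. The step starting at 50682000 had 5.36 in DP and 53.2 in ES, 9.92 times more in ES, and that starting at 50802000 had 10.8 and 67.4, 6.24 times more. In these steps 1 fragment held 92.6% and 91.2% of the DP reads. Another pair, in the gene-free stretch farther out, started at 50622000 (21.1 against 121.3) and at 50462000 (8.65 against 49.5). In the 2 steps between 50762000 and 50801999, DP had only 36 and 5 reads, against 1373 and 1649 in ES, and no ratio was ranked there.

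The remaining stretches beyond Tbc1d5 had the same direction as Plcl2. Over the 483 fragments of the gene-free stretch from 50462000 to the start of Plcl2, the signal was 19.9 in DP and 64.2 in ES, 3.23 times more in ES. Over the 116 fragments between Plcl2 and Tbc1d5, it was 15.7 and 26.0. Gm7334 lay on 3 fragments, with 0 reads in DP and 283 in ES, all on 1 of them. Both libraries had more signal beyond Plcl2 than between Plcl2 and Tbc1d5, although the former lies farther from the bait, and 95% against 76.7% of the fragments there had a unique end. The ES rise to 270.3 in the running mean at 50598471, 1364 kb from the bait, stood where no gene is annotated. In DP the running mean there was 25.9.

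Taken from the far end, the reads accumulated later in DP. The first 10% of the block's reads were reached 1183 kb from the bait in DP and 1364 kb in ES, and 50% were reached at 842 kb in DP and 952 kb in ES. At the end of Plcl2 toward the bait, 10.4% had accumulated in DP and 30.7% in ES. Farther out still, between 1500 and 2358 kb from the bait, reads scaled to the total of each library gave a DP to ES ratio of 0.283, against 0.280 on the same scale beyond Tbc1d5. Low DP values were thus also found outside the block.

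The other side of the bait at the same distances gives a comparison matched on distance, although it begins at the outer edge of the enhancer region and is not a neutral control. Over its 2255 fragments the signal was 34.7 in DP and 23.6 in ES, and the ratio was 1.47. The block had 1.95 times the level of this mirror in DP and 3.81 times in ES, so that in both cell types the side of Tbc1d5 was captured more. By the share of fragments with a read, these values were 2.32 and 2.49, so that the larger value in ES held for the signal more than for detection. For Tbc1d5 alone, the values by signal were 1.78 in DP and 3.29 in ES. Beyond Tbc1d5 they were 5.74 and 5.21.

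Contacts fell off past 1090 kb on both sides in DP. On the mirror side the signal decreased from 66.6 at the distances of Tbc1d5 to 2.95 beyond in DP, a factor of 22.6, and from 37.9 to 10.8 in ES, a factor of 3.52. The DP value of 2.95 rested on 20 of 1213 fragments with a read (1.65%, against 12.0% in ES). Of the fragments there 65.3% had an end unique in the genome, against 88.2% beyond Tbc1d5. The DP to ES ratio beyond Tbc1d5 (0.302) therefore had a counterpart of 0.274 at the mirror distances, so low DP values at these distances were also found outside the block. The ratio of 0.95 over Tbc1d5 was flanked by 0.385 on its bait side and 0.302 on its far side, whereas at its mirror the ratio was 1.76. With 1 library per cell type, none of these differences was tested.

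**Figure D5:**
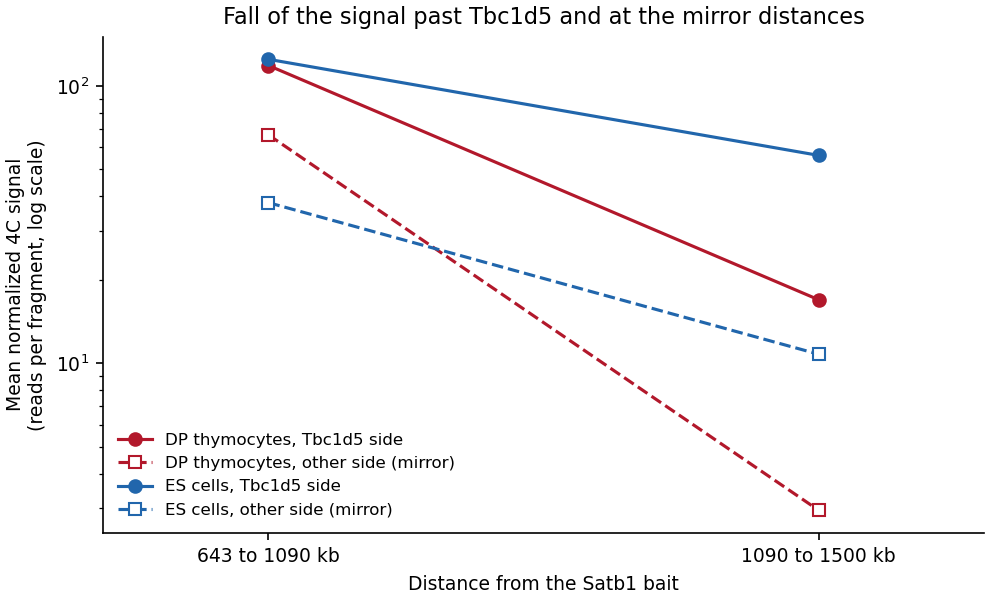
Mean normalized 4C signal (y-axis, reads per fragment, log scale) at the distances of Tbc1d5 and of the stretch beyond it (x-axis, distance from the Satb1 bait) on the side of Tbc1d5 (filled circles, solid lines) and at the mirror distances (open squares, dashed lines), with 1 library per cell type. DP and ES start level on the side of Tbc1d5 at 118.5 and 124.7, and DP falls more steeply on both sides, to 16.9 and 2.95 against 56.2 and 10.8 in ES. The mirror begins at the outer edge of the enhancer region and is not a neutral control. Its DP value of 2.95 rests on 20 of 1213 fragments with a read.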

How the data were processed

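4C-seq was performed with the Satb1 bait in 1 DP and 1 ES library, sequenced as 50 nt reads. The authors trimmed the bait sequence with up to 2 mismatches, mapped the remaining 26 nt to mm9 with Bowtie and deposited read counts per DpnII fragment, neither normalized nor cleared of PCR duplicates. Their user guide removes any fragment that takes over 2% of the reads. The submitters' notes list Bowtie version 1.0.0 and bcl2fastq. The deposited counts sum to 1997083 reads in DP and 1847598 in ES, of which 83.0% and 66.8% lay within 1.5 Mb of the bait, on 39.2% and 50.4% of the fragments. All 229546 midpoints matched a DpnII fragment of mm9.

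Counts were quantile normalized, a step of the Methods (checked against limma version 3.58.1). The Methods give it no range, and the 1.5 Mb around the bait, their plotting limit, was taken here. Signals were averaged over genes and over steps of 20 and 50 kb from the far end, and compared as ratios (Python version 3.11.15, pandas version 2.3.3, scipy version 1.17.1). A step counted as different past 2-fold. The scripts were tested on simulated data. Of fragments with no end unique in the genome (1177 of 7547), 2.63% in DP and 4.84% in ES had a read, against 46.0% and 58.8% of the others. Named are the genes of the block, the 5 highest and 5 lowest 20 kb steps by ratio (at least 20 fragments and 100 reads in each library), and the 3 highest steps and fragments of each library. Members, steps and lists were chosen with earlier results of these data known. Alternatives covered the scaling, the normalization range, high fragments, the summary, the fragments used, the step grid and the fold. The other 4 libraries were not used.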

Additional observations from a re-analysis of the deposited data

How the results depend on the processing

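No paired analysis was possible because each cell type had 1 library with the Satb1 bait, and no library could be left out. The DP to ES ratios over the block, over Tbc1d5 and beyond it kept their side of 2-fold under the 12 alternatives run for each, and the count of 50 kb steps toward DP stayed at 0. Single 20 kb steps did cross 2-fold. The part beyond Tbc1d5 stayed at ratios of 0.255 to 0.324, and the counts of 20 kb steps toward ES stayed within 14 to 25. Of those 3 ratios, that over Tbc1d5 crossed 1, in 1 of 12 alternatives. Scaled to all reads on the chromosome, the DP to ES ratios were 0.782 over the block, 1.01 over Tbc1d5 and 0.280 beyond it, and the ratio around the start of Tbc1d5 turned from 0.928 to 1.12. Scaled to reads within 1.5 Mb but outside 20 kb, they were 0.711, 0.919 and 0.255, with 1 step of 20 kb toward DP. With 20 kb around the bait left out of the normalization, the block had 0.758 and Tbc1d5 0.958. By the share of fragments with a read, the ratios were 0.584, 0.773 and 0.324, with 0 such steps, and the block over its mirror was 2.32 in DP and 2.49 in ES. With GTAC fragments alone, the ratios were 0.721, 0.899 and 0.265, with 1 such step, and the mirror values were 2.02 and 3.97. Odd-numbered fragments gave 0.760 over the block, 0.961 over Tbc1d5, 4 such steps, and mirror values of 1.98 and 3.95. Even-numbered fragments gave 0.743, 0.937, 5 such steps, and 1.93 and 3.67. Without the highest fragment, the ratio beyond Tbc1d5 was 0.296, and the mirror values were 1.97 and 3.86. With fragments of at least 100 bp these were 0.288, 1.99 and 3.92. Signal per kb gave mirror values of 1.82 and 3.55, and fragments with a unique end, an alternative added after seeing the data, gave 1.63 and 3.21. Fragment filters were applied after the normalization. Steps toward DP numbered 1 with the grid moved, 4 at 1.5-fold and 0 at 3-fold, where 5 steps of 50 kb remained past the limit toward ES. The cause of these shifts was not tested. With few reads on few fragments beyond Tbc1d5 in DP, single steps there rest on 1 or a few fragments.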
